A study of Equus caballus with 37 samples.

Results

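Expression of 3 genes for transcription coregulators, TBL1X (ENSECAG00000015324), NCOA2 (ENSECAG00000008394) and TAF1 (ENSECAG00000006365), was measured by RNA sequencing of blood from Arabian horses in race training. The genes were taken by their Ensembl identifiers as 3 of the 26991 genes of the count table, and all 3 passed the filter on low counts in every comparison. In the paper TBL1X and TAF1 are orthologue names of genes that were uncharacterized in Ensembl. Both names, and the functions and chromosomes given for them below, rest on that orthology. Jugular blood came from 4 groups. T0 was untrained (6 libraries, 2 mares and 4 stallions), T1 was sampled in March when the phase of slow canter was over (12 libraries, 5 mares and 7 stallions), T2 in May once the phase of intense gallop was done (11 libraries, 4 mares and 7 stallions) and T3 in October, when the racing season closed (8 libraries, 4 mares and 4 stallions). The labels give an age of 3 years for all horses of T1 to T3, and of 2.5 years for all T0 horses but 1, a mare of 3 years. No label gives a month for T0. Training stage went together with season and, in the paper, with a feed supplement set by stage, and T0 also differed in age. These cannot be told apart here. The trained horses were sampled repeatedly and some untrained horses later entered training, but no label ties a library to a horse, so libraries were treated as independent and the p-values measure the spread between them.

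Coregulators are proteins that do not choose a gene by themselves but set how strongly the factors bound there switch it on or off. TBL1X (transducin beta like 1 X-linked) is a subunit of the NCoR/SMRT corepressor complex and takes part in the exchange of corepressors for coactivators, and NCOA2 is a p160 coactivator that joins ligand-bound nuclear receptors, the glucocorticoid receptor among them. TAF1 is the largest subunit of TFIID, the general factor that marks promoters for RNA polymerase II. TBL1X and TAF1 lie on the X chromosome and NCOA2 on an autosome.

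Levels are given as CPM, the count relative to a library total scaled with the TMM factor, which is set so that most genes are comparable between libraries. The total of counts ranged from 3810631 to 14932603 per library. In 5 libraries of T1 (replicates 1, 2, 3, 4 and 11; 4 mares and 1 stallion) the TMM factor was 0.410 to 0.696, against 0.922 to 1.14 in the other 7 (1 mare and 6 stallions), and log2 fold changes between T1 and other periods are also given without these 5. In the study's read statistics, taken in the order of the labels, these 5 had the lowest shares of uniquely mapped reads of T1. Replicates 1, 2, 3 and 4 were also the only T1 libraries of their sequencing pool. A gene was called when its Benjamini-Hochberg adjusted p-value in edgeR's quasi-likelihood F-test was below 0.05 and its level was at least 1.3-fold higher or lower, and a log2 fold change above 0 means that the second period named had the higher level. The 3 genes had been picked by the study on these same libraries, TBL1X and NCOA2 for T2:T3 and T0:T3 and TAF1 for T0:T3, so their p-values there are not independent evidence. The 6 comparisons share libraries with each other, and the counts are not divided by gene length, so levels are compared between periods and not between genes. In blood RNA, fewer cells of a type and less RNA per cell cannot be told apart.

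TBL1X was lowest after the slow canter phase and highest at the end of the season. In T0 the 6 libraries had 28.5, 33.4 and 38.1 CPM as lowest, median and highest value (mean 33.4 ± 3.55, SD, n = 6). The 12 libraries of T1 had 6.40, 12.9 and 24.1 CPM (13.9 ± 5.49, SD, n = 12), and the 11 of T2 had 7.63, 18.3 and 28.2 CPM (18.5 ± 5.77, SD, n = 11). Every T1 and every T2 library lay below the lowest T0 library. In T3 the 8 libraries had 25.5, 37.9 and 48.4 CPM (39.0 ± 8.21, SD, n = 8), so 4 of them lay above all T0 libraries and 1, replicate 2, below all of them.

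NCOA2 had the same order of periods. In T0 its lowest, median and highest values were 63.8, 81.7 and 87.7 CPM (79.7 ± 9.28, SD, n = 6). They were 14.1, 29.9 and 41.8 CPM in T1 (29.6 ± 10.1, SD, n = 12) and 13.9, 41.8 and 65.7 CPM in T2 (39.8 ± 15.3, SD, n = 11). All T1 libraries and 10 of the 11 T2 libraries lay below the T0 range, the exception being replicate 5 of T2. In T3 the values were 74.5, 131.5 and 164.6 CPM (127.5 ± 32.3, SD, n = 8), and 7 of the 8 libraries lay above every T0 library, again with replicate 2 as the lowest.

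TAF1 had that order of periods too. Its T0 libraries had 50.2, 61.0 and 67.2 CPM as lowest, median and highest value (60.1 ± 6.47, SD, n = 6). The values were 3.84, 23.8 and 39.4 CPM in T1 (23.2 ± 10.6, SD, n = 12) and 16.2, 35.2 and 49.9 CPM in T2 (31.9 ± 10.5, SD, n = 11). No T1 or T2 library reached the lowest T0 library. In T3 they were 52.6, 79.1 and 101.8 CPM (75.8 ± 16.4, SD, n = 8), with 6 of 8 libraries above the T0 range. The lowest T1 value of each gene came from replicate 11, the library with the smallest total, where it rested on 10 counts of TBL1X, 22 of NCOA2 and 6 of TAF1. The exact 95% Poisson interval of that TAF1 value, which covers counting error only, was 1.41 to 8.35 CPM.

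**Figure D1:**
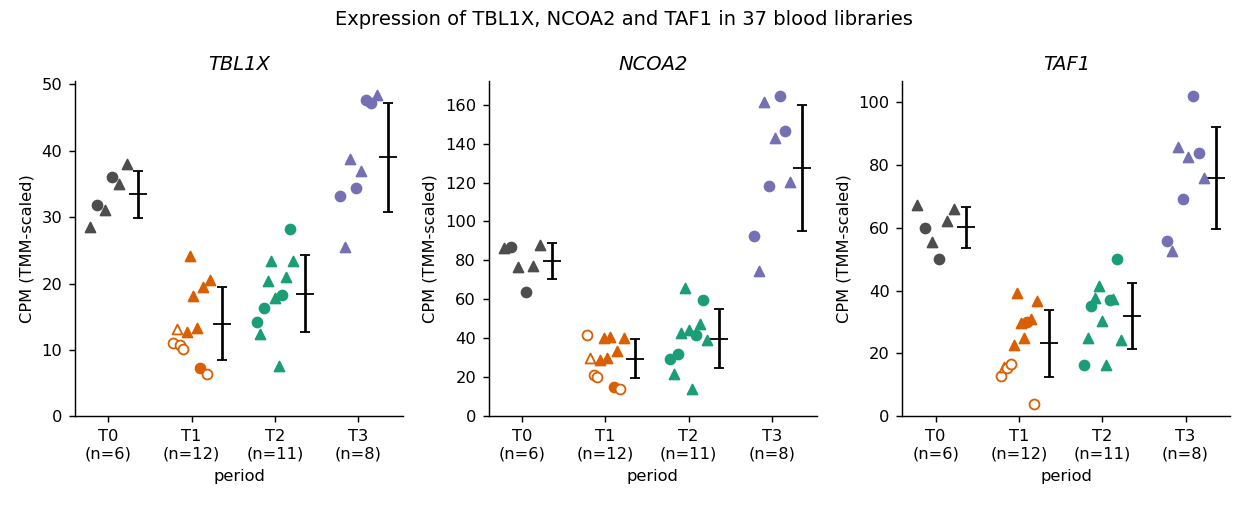
TMM-scaled CPM (vertical axis, from 0) of TBL1X, NCOA2 and TAF1 in each of the 37 libraries by period. Circles are mares, triangles stallions, open symbols the 5 T1 libraries with TMM factors from 0.410 to 0.696, and the black bars mean ± SD. All T1 libraries lie below all T0 libraries in each panel, and the T3 mean of NCOA2 (127.5 CPM) stands farther above its T0 mean (79.7 CPM) than those of the other two.

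The level of each gene was lower in both spring samplings than in the untrained horses. In T0:T1 the log2 fold change was -1.26 (SE 0.22) for TBL1X, a 2.403-fold lower level, -1.44 (SE 0.21) for NCOA2, 2.72-fold lower, and -1.38 (SE 0.28) for TAF1, 2.59-fold lower. The edgeR adjusted p-values were 0.000237, 4.3e-05 and 0.000708. Of the 11544 genes tested in T0:T1, 58.1% were called, 29.2% as lower in T1, and 13.9% had every T1 library below every T0 library, as all 3 coregulators did. Without the 5 T1 libraries with low TMM factors the log2 fold changes were -0.98 for TBL1X, -1.26 for NCOA2 and -0.95 for TAF1, and all 3 were still called. With the log2 TMM factor as a covariate that of TAF1 was -0.64 and that of TBL1X -0.84, both still called. Factors ran from 0.410 to 1.14 in T1 and from 1.17 to 1.24 in T0, without overlap. So that fit extrapolates and cannot separate the factor from the period.

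In T0:T2 the differences were smaller, with log2 fold changes of -0.83 (SE 0.19) for TBL1X, -0.97 (SE 0.23) for NCOA2 and -0.88 (SE 0.20) for TAF1. These are levels 1.78, 1.96 and 1.85 times lower in T2, and all 3 genes were called (edgeR adjusted p = 0.00401, 0.00458 and 0.00347). In this comparison 33.5% of 11662 genes were called, 16.5% as lower in T2, and 5.98% of genes had all T2 libraries below all T0 libraries, as TBL1X and TAF1 did. TMM factors were 0.949 to 1.21 in T2 and 1.17 to 1.24 in T0, and with the log2 TMM factor as a covariate no coregulator was called, at log2 fold changes of -0.35, -0.42 and -0.26 for TBL1X, NCOA2 and TAF1. That edgeR fit called 0 genes in all, with 1153 at an unadjusted p below 0.05.

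Between untrained horses and horses at the end of the season, NCOA2 was the 1 coregulator that was called, at a log2 fold change of 0.66 (SE 0.15) and a 1.58-fold higher level in T3 (edgeR adjusted p = 0.00631). The values of TBL1X, 0.21 (SE 0.13, adjusted p = 0.241), and of TAF1, 0.32 (SE 0.13, adjusted p = 0.0801), did not pass. In T0:T3, 19.6% of 11696 genes were called, 10.4% as higher in T3, and 860 genes had a larger log2 fold change than NCOA2. The call of NCOA2 was lost when all 37 libraries shared 1 estimate of the spread (0.68, adjusted p = 0.105). TAF1 was called without replicate 2 of T3 (0.39, adjusted p = 0.0241) and with the log2 TMM factor as a covariate (0.38, adjusted p = 0.0145).

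Between the slow canter and the gallop phase none of the 3 genes was called. The log2 fold changes in T1:T2 were 0.40 (SE 0.21) for TBL1X, 0.44 (SE 0.23) for NCOA2 and 0.46 (SE 0.25) for TAF1, with edgeR adjusted p-values of 0.132, 0.121 and 0.146. Their libraries overlapped widely, with 1, 6 and 2 of the 11 T2 libraries above the T1 range. Of all genes 31.8% were called in T1:T2, 11.1% as higher in T2. Without the 5 T1 libraries with low TMM factors the values were 0.17, 0.30 and 0.07, and edgeR called 0 of 11456 genes, with 1439 at an unadjusted p below 0.05. NCOA2 was called when replicate 7 of T2, the library with its lowest T2 level, was left out (0.51, adjusted p = 0.04996).

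All 3 genes had higher levels at the end of the season than after the gallop phase. In T2:T3 the log2 fold change was 1.06 (SE 0.18) for TBL1X, a 2.09-fold higher level, 1.66 (SE 0.22) for NCOA2, 3.15-fold higher, and 1.23 (SE 0.19) for TAF1, 2.34-fold higher. The edgeR adjusted p-values were 0.00024, 4.44e-05 and 0.000104. Here 44% of 11599 genes were called, 22.5% as higher in T3. Every T3 library lay above every T2 library for NCOA2 and TAF1, which held for 3.9% of genes, and 7 of 8 did for TBL1X. Ranked by log2 fold change, NCOA2 had 142 genes above it, TAF1 484 and TBL1X 723. In T1:T3 the log2 fold changes were 1.48 (SE 0.21), 2.11 (SE 0.21) and 1.70 (SE 0.26) for TBL1X, NCOA2 and TAF1, all called (edgeR adjusted p = 8.16e-06, 2.39e-07 and 1.67e-05), where 64.9% of genes were called, 32.9% as higher in T3. All 3 genes had every T3 library above every T1 library, as did 12.1% of genes. Without the 5 T1 libraries with low TMM factors the T1:T3 values were 1.23, 1.96 and 1.299, and with the log2 TMM factor as a covariate that of TAF1 was 1.02, each still called.

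**Figure D2:**
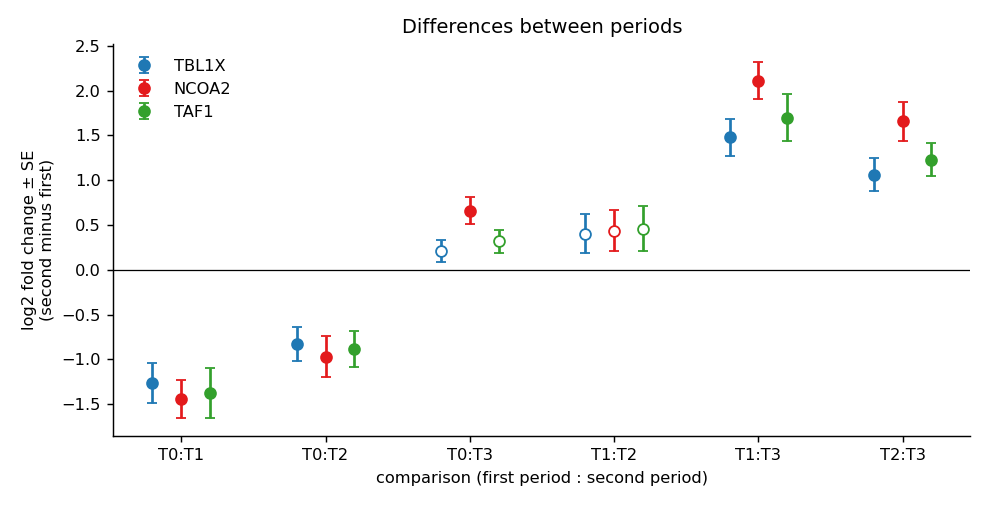
Log2 fold changes (second minus first period, with SE) of TBL1X, NCOA2 and TAF1 in the 6 comparisons from edgeR. Filled points were called differentially expressed and open points were not, and the zero line is drawn: the 3 genes lie below it in T0:T1 and T0:T2, above it in T1:T3 and T2:T3, and in T0:T3 NCOA2 is the filled point at 0.66.

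The order of the periods was the same for the 3 genes, T1, T2, T0 and T3 from low to high. In the study's read statistics every T1 library had a lower share of uniquely mapped reads than any T0 or T3 library. Many T2 libraries were lower too, and the periods were not spread evenly over the sequencing pools. Whether mapping or pool had a part in this order was not tested. Neighbours T1 and T2 did not differ beyond the spread of their libraries, T2 and T0 did, and T0 and T3 did for NCOA2. Scaling by the counts of SDHA in place of the TMM factor gave the same 18 calls. SDHA, a mitochondrial dehydrogenase subunit and a reference gene of the study's qPCR, had mean levels of 202.6, 190.8, 200.9 and 202.4 CPM in T0, T1, T2 and T3, and with TMM scaling it was not called in any comparison (edgeR adjusted p = 0.475 to 0.948). The difference in the mean log2 ratio of the counts of NCOA2 to those of SDHA was 0.64 in T0:T3 (exact permutation test, two-sided, p = 0.00766, adjusted over 18 values 0.0106) and 1.73 in T2:T3 (p = 3.97e-05, adjusted 0.000179). The T0:T3 differences of TBL1X to SDHA, 0.20, and of TAF1 to SDHA, 0.31, did not pass (exact permutation test, adjusted p = 0.183 and 0.0736). With GAPDH, a glycolytic enzyme and the study's other reference gene, as denominator the T0:T3 difference of NCOA2 was 0.55 and missed the threshold (adjusted p = 0.0621 by the exact permutation test). With TMM scaling GAPDH was itself called in T0:T1 (0.51, edgeR adjusted p = 0.0275) and T1:T3 (-0.41, adjusted p = 0.044). It was not called in T0:T3 (0.10, edgeR adjusted p = 0.642).

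Ratios between the 3 genes within a library, which no scaling of libraries can change, separated NCOA2 from the others at the end of the season. The log2 ratio of NCOA2 to TBL1X counts had means of 1.25 ± 0.27 (SD, n = 6) in T0 and, in T1, 1.10 ± 0.35 (SD, n = 12). It was 1.07 ± 0.22 (SD, n = 11) in T2, and in T3 it was 1.69 ± 0.25 (SD, n = 8). It was higher in T3 than in T2 by 0.62 (exact permutation test, two-sided, p = 7.94e-05, adjusted over 18 values 0.00143), than in T1 by 0.60 (p = 0.00112, adjusted 0.00672) and than in T0 by 0.44 (p = 0.00799, adjusted 0.0288), and all 8 T3 libraries lay above the median of each other period. The T0:T3 difference missed the adjusted threshold when any 1 of 7 libraries was left out (replicates 4, 5 and 6 of T0 and 3, 4, 5 and 6 of T3; 0.36 to 0.43). The ratio of NCOA2 to TAF1 had means of 0.40 ± 0.08 (SD, n = 6) in T0 and, in T1, 0.45 ± 0.77 (SD, n = 12). It was 0.28 ± 0.37 (SD, n = 11) in T2, and in T3 it was 0.73 ± 0.12 (SD, n = 8). It was higher in T3 than in T0 by 0.33 (exact permutation test, p = 0.000999, adjusted 0.00672) and than in T2 by 0.45 (p = 0.00495, adjusted 0.0223), the latter missing the threshold without replicate 3 of T3 (0.42, adjusted p = 0.0501).

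Against T1 the NCOA2 to TAF1 ratio depended on the libraries with low TMM factors. It ran from -1.01 to 1.79 over the 12 libraries of T1, and the T1:T3 difference of 0.28 did not pass (exact permutation test, p = 0.329, adjusted 0.59). Without the 5 libraries it was 0.69 (exact permutation test, p = 0.000622, adjusted 0.00559). Within T1 the ratio was 1.03 ± 0.70 (SD, n = 5) in the 5 libraries with low factors and 0.045 ± 0.53 (SD, n = 7) in the other 7. The ratio of TAF1 to TBL1X, with means of 0.85, 0.64, 0.78 and 0.96 from T0 to T3, passed in none of the 6 comparisons, with adjusted p-values of 0.525 to 0.783 by permutation. Without replicate 9 of T1, which had the highest value of this ratio (2.04), the T1:T3 difference was 0.44 and passed (exact permutation test, adjusted p = 0.0245).

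**Figure D3:**
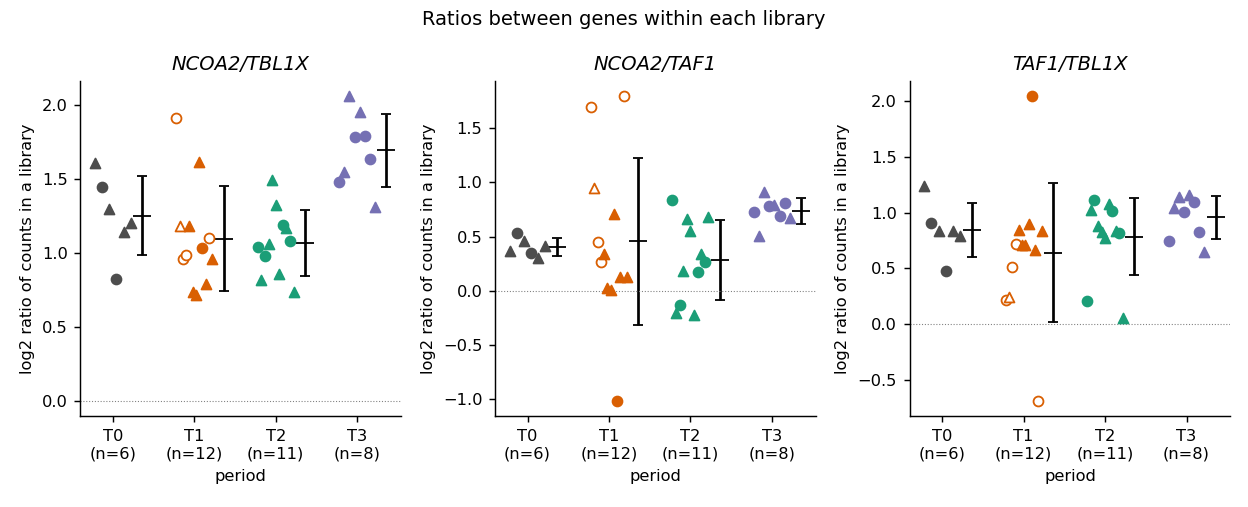
Log2 ratio of raw counts of NCOA2 to TBL1X, NCOA2 to TAF1 and TAF1 to TBL1X (vertical axes) in each library by period, with symbols as in the plot of levels and mean ± SD as bars. The T3 libraries sit high in the first 2 panels (means 1.69 and 0.73), and the T1 libraries spread from -1.01 to 1.79 in the second.

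Across libraries of 1 period, all 3 pairs of the genes passed the test of Pearson's r in T2 and T3, the pairs of TBL1X with NCOA2 and with TAF1 passed in T1, and NCOA2 with TAF1 passed in T0. The share of all gene pairs that pass within a period was not counted. Over the 37 libraries with period means subtracted, 20.6% of 9328 genes had a higher r with TAF1 than TBL1X did. For NCOA2 that share was 28.3%. With TBL1X, 0.568% had a higher r than NCOA2 did. TBL1X and NCOA2 had a Pearson's r of log2 CPM of 0.81 in T1, 0.95 in T2 and 0.79 in T3 (permutation tests, exact in T3, p = 0.00137, 5e-05 and 0.0189, adjusted over 12 values 0.00548, 0.0003 and 0.0284). Spearman's rho was 0.72, 0.82 and 0.74 (permutation p = 0.0112, 0.0033 and 0.0458, adjusted 0.0269, 0.0132 and 0.0687). In the 6 libraries of T0, whose levels lay close together, r was -0.31 (exact permutation p = 0.585, adjusted 0.638) and rho 0.14 (p = 0.803). NCOA2 and TAF1 were closest in T3, where r was 0.97 (exact permutation p = 2.48e-05, the smallest possible, adjusted 0.000298) and rho 1 (p = 4.96e-05, adjusted 0.000595), so the 8 libraries had the same order for both genes. For this pair r was 0.88 in T0 (exact permutation p = 0.0222, adjusted 0.0296), 0.54 in T1 (permutation p = 0.0667, adjusted 0.0801) and 0.82 in T2 (permutation p = 0.00232, adjusted 0.00696), and rho was 0.71 (p = 0.136), 0.31 (p = 0.319) and 0.86 (p = 0.00103). TBL1X and TAF1 had r of -0.20 in T0 (exact permutation p = 0.682), 0.73 in T1 (permutation p = 0.00407, adjusted 0.00814), 0.79 in T2 (permutation p = 0.00365, adjusted 0.00814) and 0.82 in T3 (exact permutation p = 0.012, adjusted 0.0206). Their rho was -0.20, 0.74, 0.71 and 0.74 (permutation p = 0.714, 0.0077, 0.0182 and 0.0458, adjusted 0.779, 0.0231, 0.0365 and 0.0687), so it missed the threshold in T3.

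Few of these relations kept an adjusted p below 0.05 when the 2 libraries farthest from the median of the gene named first were left out. TBL1X and NCOA2 did in T2 (r = 0.87, exact permutation test, adjusted p = 0.01) and NCOA2 and TAF1 did in T3 (r = 0.90, exact permutation test, adjusted p = 0.01). For TBL1X and TAF1 r fell to 0.48 in T1 and 0.55 in T2. Leaving out the farthest libraries narrows the range of the first gene and lowers the number of libraries. A lower r therefore cannot show that a relation rested on them. For TBL1X and NCOA2 in T1 r was 0.71 and for NCOA2 and TAF1 in T2 it was 0.76 (permutation tests, exact in T2, both adjusted p = 0.0648). In T3 the pairs of TBL1X kept their r on the 6 libraries left, 0.76 with NCOA2 and 0.82 with TAF1 (exact permutation tests, adjusted p = 0.167 and 0.0967), and rho was 0.94 for both. In T0 only 4 libraries were left, too few for NCOA2 and TAF1 to pass after adjustment, and r was 0.56. With the log2 TMM factor regressed out, r of TBL1X and NCOA2 was 0.80 in T1 and 0.90 in T2 (permutation tests, adjusted p = 0.00728 and 0.00348), while r of TBL1X and TAF1 was 0.38 and 0.47 (adjusted p = 0.266 and 0.192).

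**Figure D4:**
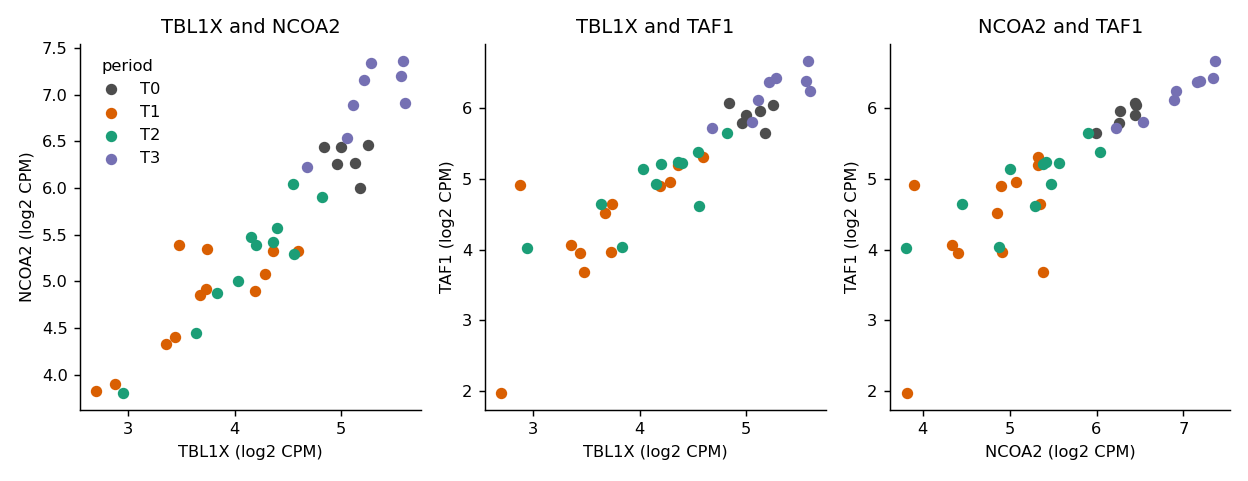
Log2 CPM of each pair of the 3 genes, 1 point per library, coloured by period. Within T2 the points of TBL1X and NCOA2 follow a line (r = 0.95), within T3 those of NCOA2 and TAF1 do (r = 0.97), and the lowest T1 point in each panel is replicate 11.

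The level of TAF1 moved with the TMM factor of the library in T1 and T2. Pearson's r between log2 CPM of TAF1 and the log2 factor was 0.91 over the 12 T1 libraries (permutation p = 1e-05, the smallest that the resamples can give, adjusted over 12 values 0.00012; rho = 0.92) and 0.88 over the 11 T2 libraries (permutation p = 0.00039, adjusted 0.00234; rho = 0.84), and without the 2 libraries farthest from the median factor it was 0.93 and 0.86. For NCOA2 it was 0.40 in T1 (permutation p = 0.196, adjusted 0.261; rho = 0.26) and 0.70 in T2 (permutation p = 0.0141, adjusted 0.0412; rho = 0.64), and for TBL1X 0.68 and 0.72 (permutation p = 0.0172 and 0.0105, both adjusted 0.0412; rho = 0.76 and 0.58). Without the 2 farthest libraries NCOA2 had 0.58 in T2, and TBL1X 0.52 in T1 and 0.58 in T2. In T0 and T3 no gene passed over all libraries (exact permutation tests, adjusted p = 0.151 to 0.854). In T3 r was 0.41 for TBL1X, 0.65 for NCOA2 and 0.64 for TAF1, and it rose to 0.61, 0.93 and 0.87 without the 2 farthest libraries. The part of the TMM factor in the differences between periods was not tested beyond the fits given above.

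**Figure D5:**
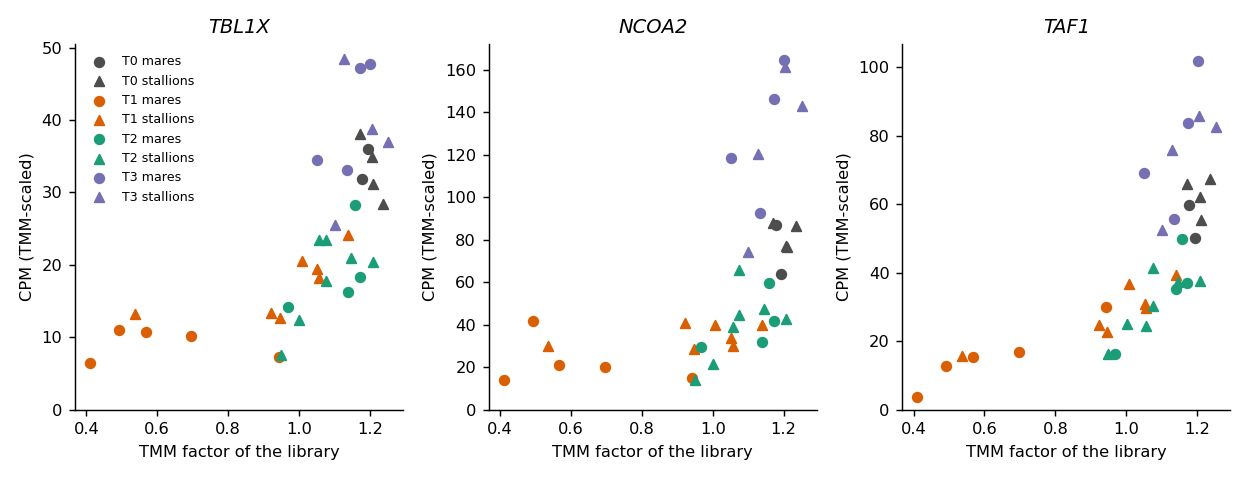
TMM-scaled CPM (vertical axis, from 0) of each gene against the TMM factor of the library, coloured by period, with circles for mares and triangles for stallions. TAF1 rises with the factor within T1 (r = 0.91 on log2 scales), NCOA2 less so (r = 0.40), and 4 of the 5 T1 libraries at the left are from mares.

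Over the 4 periods none of the 3 genes was called as different between mares and stallions, while within T1 TBL1X passed an exact test chosen after the data were seen. With the period in the edgeR fit of 37 libraries the log2 fold change of stallions against mares was 0.20 (SE 0.15) for TBL1X, 0.18 (SE 0.16) for NCOA2 and 0.20 (SE 0.17) for TAF1 (adjusted p = 0.425, 0.501 and 0.487), and 4 of 12025 genes, 0.0333%, were called. T1 was the period with the widest gap. There the 5 mares had 6.40 to 11.05 CPM of TBL1X (9.12 ± 2.15, SD, n = 5) and the 7 stallions 12.7 to 24.1 CPM (17.3 ± 4.40, SD, n = 7), so the sexes did not overlap, while the mares of T2 had 14.2 to 28.2 CPM and the stallions 7.63 to 23.4 CPM. How many of all genes had no overlap of the sexes in T1 was not counted. The T1 difference of TBL1X was 0.91 (SE 0.23, edgeR adjusted p = 0.0662), that of NCOA2 0.63 (SE 0.25, adjusted p = 0.0907) and that of TAF1 0.80 (SE 0.36, adjusted p = 0.119). An exact permutation test of log2 CPM within T1 gave a difference of 0.92 for TBL1X (p = 0.00126, the smallest possible, adjusted over 12 values 0.0152), and NCOA2 and TAF1 did not pass (both adjusted p = 0.106). In the other periods no gene passed this exact test (adjusted p = 0.6 to 0.857), which in T0 cannot give a p below 0.0667. Within T1 edgeR called 0% of the 11109 genes, with 4268 at an unadjusted p below 0.05. Since 4 of the 5 mares of T1 had low TMM factors, and with them low shares of uniquely mapped reads, sex, factor and mapping cannot be told apart for these. The remaining mare, replicate 9, had a factor of 0.942, 7.25 CPM of TBL1X, 14.9 CPM of NCOA2 and 30.1 CPM of TAF1. With the log2 factor as a covariate the T1 differences were 0.63, 0.69 and -0.08. Without the 5 libraries, which leaves replicate 9 against 6 stallions and takes this mare to vary as they do, they were 1.32 for TBL1X, 1.26 for NCOA2 and 0.036 for TAF1 (edgeR adjusted p = 0.307, 0.302 and 0.967). Whether a change between periods differed between the sexes was tested in each pair, and the interaction passed for none of the 3 genes (edgeR adjusted p = 0.152 to 1). Over all genes 0 passed in each pair, with 156 to 3068 at an unadjusted p below 0.05.

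To set the 3 proteins beside their partners, 88 symbols were looked up, of NCoR/SMRT subunits, p160 coactivators and their partners, nuclear receptors, TFIID subunits and markers of blood cell types, but none could be paired with an identifier of the count table, and they are not analysed here. So the label of the tissue was not checked against markers, and the cell types of the samples were not measured. A list of 12 other genes, drawn up as transcription and chromatin regulators, served as the setting. It also holds HIPK1, which the paper classes as a kinase, and LOC100062658, which has no gene name. The roles of the 12 were not checked. The study prints their identifiers because it picked them on these same libraries, so their directions in T2:T3 and T0:T3 are not independent evidence. The other comparisons share T0, T2 or T3 libraries with those, so directions there are not free of that choice either. All 12 were called as lower in T1 and in T2 than in T0 (median log2 fold changes -1.79 and -1.06, against -0.05 and 0.04 over all genes tested), where 29.2% and 16.5% of genes were called as lower. All 12 were called as higher in T3 than in T1 and T2 (medians 1.89 and 1.36, against 0.04 and -0.05), where 32.9% and 22.5% of genes were called as higher. The highest in T2:T3 were NFAT5, a factor of the response to osmotic stress, at 2.56 (SE 0.34), PRR14L at 2.405 (SE 0.37), KMT2C, a histone H3 lysine methyltransferase, at 2.26 (SE 0.29), and FOXN2, a forkhead factor, at 1.86 (SE 0.26). In T1:T2, where 31.8% of genes were called, 11.1% as higher in T2, the chromatin remodeller SRCAP was called, at 0.88 (SE 0.26, edgeR adjusted p = 0.0144). The other 11 were not. In T0:T3, where 19.6% of genes were called, 10.4% as higher in T3, edgeR called 0 of the 12. Their median was 0.20, and 2 of them had an unadjusted p below 0.05. These were NFAT5 at 0.72 (SE 0.31, adjusted p = 0.106) and the zinc finger gene ZNF618 at 0.59 (SE 0.24, adjusted p = 0.0792), values on both sides of the 0.66 of NCOA2.

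Likeness between genes was described over the 37 libraries after the mean of each period was subtracted, among the 9328 other genes whose mean count was 50 or more. These points share library, depth and TMM factor. TBL1X and NCOA2 had r of 0.84, and 0.568% of genes were closer to TBL1X than NCOA2 was. TBL1X and TAF1 had r of 0.73 and NCOA2 and TAF1 0.64. The 95th percentile of r over the 9328 genes was 0.72 for TBL1X, 0.67 for NCOA2 and 0.86 for TAF1. Seen from TAF1, 20.6% of genes were closer than TBL1X and 28.3% closer than NCOA2, and its r with the log2 TMM factor was 0.86, against 0.58 for TBL1X and 0.37 for NCOA2. The 3 genes most like each member had r of 0.90 to 0.91 with TBL1X, 0.92 to 0.95 with NCOA2 and 0.95 with TAF1. None of these identifiers is paired with a symbol in the sources used here. The closest to NCOA2 was ENSECAG00000019795 (r = 0.95) and the closest to TAF1 was ENSECAG00000025119 (r = 0.95).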

How the data were processed

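Per the labels and the study's methods, libraries were made from total blood RNA with a TruSeq RNA kit and sequenced as single-end reads in several lanes. The authors trimmed reads with Flexbar, aligned them with STAR to EquCab2 with Ensembl annotation and obtained expected counts of each gene by RSEM; the deposited table holds them as whole numbers, not normalized, in 1 column for each library. The authors' 3 smaller tables were not used. A gene's reads shared with near-identical copies were split by RSEM's estimate, and strand was not kept by the kit.

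Here edgeR 4.0.16 was run under R 4.3.3 (filterByExpr, TMM, robust quasi-likelihood F-test, Benjamini-Hochberg over all genes tested), fitting the 2 periods compared. SE is the log2 fold change over the root of F. Log2 CPM used a prior count of 1 and ratios a pseudocount of 0.5. Permutation tests were two-sided, over all arrangements when a group held fewer than 10 libraries and over 100000 resamples otherwise, in Python 3.11.15. The fits and tests were tested on simulated data. Genes were named by rule: the 3 coregulators, SDHA and GAPDH, the 3 genes most like each coregulator (at most 2 identifiers printed), and of each list up to 4 with the largest log2 fold change in T2:T3. SRCAP and ZNF618 were named after their values were seen, and HIPK1 and LOC100062658 to describe the list. The genes, lists and tests were chosen with earlier results of these data known. Alternatives were DESeq2 1.42.0, RLE size factors, library totals without TMM factors, no low-count filter, a fit of 37 libraries, sex, the log2 TMM factor or the replicate number as a term, genes over 1% of counts left out, no fold threshold, and each library left out; leaving out the 5 T1 libraries with a TMM factor below 0.75, and the factor as a term or these 5 left out in the sex fit within T1, and the exact test of sex within periods, were chosen after seeing the data.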

Additional observations from a re-analysis of the deposited data

How the results depend on the processing

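Of the 189 values of the 18 differences between periods recomputed under other settings, 182 kept their direction and their side of the threshold, and so did 331 of 333 with 1 library left out. The setting with no fold threshold reused the main fits, so its log2 fold changes could not differ. Most changes under other settings came with the log2 TMM factor as a covariate. The 5 T1 libraries with low TMM factors, all but 1 from mares and with the lowest shares of uniquely mapped reads of T1, set the limits of T1. So did the library totals, down to 3810631 counts, and cell types were not measured. The horses of T1 to T3 overlap without labels that tie them.

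With the log2 TMM factor as a covariate T0:T2 missed the threshold at log2 fold changes of -0.35 (TBL1X), -0.42 (NCOA2) and -0.26 (TAF1), TAF1 turned to -0.16 in T1:T2, and TAF1 passed in T0:T3 at 0.38. In the fit of all 37 libraries NCOA2 missed it in T0:T3 at 0.68. With 1 library left out NCOA2 in T1:T2 ranged from 0.35 to 0.53, passing without replicate 7 of T2, and TAF1 in T0:T3 from 0.25 to 0.39, passing without replicate 2 of T3. The cause was not tested.

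The replicate number as a block made TAF1 pass in T1:T2 (0.61, edgeR adjusted p = 0.0458) and changed no other call of the 3 genes. It moved the genes called in T0:T3 from 2293 to 1490. The samples shared only a number: same-numbered libraries were of different sex for 3 to 5 numbers in each pair of periods, and the correlation of their deviations from the period means ran from -0.34 to 0.50. The number of libraries that correlated best with their own number was 1 to 4 of 6 to 11 in each pair.

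Genes called differed by over 1.5 times in 9 further cases. With the log2 TMM factor as a covariate they numbered 2801 (6707 without it) in T0:T1, 0 (3904) in T0:T2, 0 (3561) in T1:T2 (edgeR, 640 at an unadjusted p below 0.05), 4787 (7447) in T1:T3 and 2953 (5108) in T2:T3. The fit of all libraries called 2105 in T0:T2 and 715 in T0:T3, library totals without TMM factors called 1637 in T1:T2, and 0 were called in T1:T2 without the 5 T1 libraries. Library totals moved the share of calls that were higher in the second period from 49.8% to 24.1% in T0:T1, 50.7% to 23.7% in T0:T2, 34.9% to 63.8% in T1:T2, 50.7% to 72.9% in T1:T3 and 51.1% to 65.0% in T2:T3. They moved the median log2 fold change of all genes from -0.05 to -0.56 in T0:T1, 0.04 to -0.13 in T0:T2, 0.06 to 0.43 in T1:T2, 0.04 to 0.50 in T1:T3 and -0.05 to 0.05 in T2:T3. No coregulator changed its call under them, and in T1:T2 their log2 fold changes were then 0.72 (TBL1X), 0.81 (NCOA2) and 0.73 (TAF1).

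Correlations that lost the threshold with the log2 TMM factor regressed out were those of NCOA2 and TAF1 in T0 (0.90) and T2 (0.60), TBL1X and NCOA2 in T3 (0.75), and TBL1X and TAF1 in T1 (0.38), T2 (0.47) and T3 (0.80). Those lost without the 2 farthest libraries were NCOA2 and TAF1 in T0 (0.56, on 4 libraries, too few to pass) and T2 (0.76), TBL1X and NCOA2 in T1 (0.71) and T3 (0.76), and TBL1X and TAF1 in T1 (0.48), T2 (0.55) and T3 (0.82). Without the 5 T1 libraries TBL1X lost it with NCOA2 (0.84) and TAF1 (0.56) on 7 libraries, with sex regressed out TBL1X and TAF1 lost it in T1 (0.53), and on library totals NCOA2 and TAF1 gained it there (0.86).

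Without the 5 T1 libraries the NCOA2 to TAF1 ratio changed by -0.36 in T0:T1, 0.24 in T1:T2 and 0.69 in T1:T3, that of NCOA2 to TBL1X by 0.066 in T1:T2, and that of TAF1 to TBL1X by 0.11 in T0:T1, -0.17 in T1:T2 and -0.00066 in T1:T3. As medians the ratio of NCOA2 to TAF1 was at -0.088 in T0:T1, NCOA2 to TBL1X at 0.054 in T1:T2 and TAF1 to TBL1X at 0.31 in T1:T3, and against SDHA TAF1 missed the threshold in T0:T2 at -0.67 while TAF1 and TBL1X passed in T0:T3 at 0.41 and 0.25. With GAPDH as denominator NCOA2 missed it in T0:T3 at 0.55. With 1 library left out the ratios whose call or direction changed ranged, for NCOA2 to TAF1, from -0.071 to 0.18 in T0:T1 and 0.40 to 0.51 in T2:T3, for NCOA2 to TBL1X, from 0.36 to 0.51 in T0:T3 and -0.070 to 0.046 in T1:T2, for TAF1 to TBL1X, from -0.14 to 0.015 in T0:T2 and 0.19 to 0.44 in T1:T3, for TAF1 to SDHA, from 0.25 to 0.40 in T0:T3 and 0.33 to 0.59 in T1:T2, and for TBL1X to SDHA, from 0.15 to 0.30 in T0:T3 and 0.25 to 0.48 in T1:T2.

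The sex difference, not called by edgeR or DESeq2 at any setting, changed sign for TBL1X within T0 (-0.023), T2 (-0.095) and T3 (-0.10), for NCOA2 within T2 (-0.048) and T3 (-0.049), and for TAF1 within T2 (-0.18) and T3 (-0.050), with the log2 TMM factor in the fit (-0.064) and within T1 with that term (-0.079). By the exact permutation test of log2 CPM within periods TBL1X passed in T1 (0.92), and the negative values were -0.040, -0.14 and -0.13 for TBL1X in T0, T2 and T3, and -0.15 and -0.088 for NCOA2 and -0.15 and -0.055 for TAF1 in T2 and T3.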
